A study of Mus musculus with 42 samples.

Results

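The genes described here encode the chromatin remodellers and histone enzymes that were measured in wounded skin of diabetic mice. They were chosen by name: every probe set whose gene symbol starts with Chd, Hdac, Sirt, Brd, Arid or Kdm followed by a number, or with Smarc or Setd, together with Rbbp4, Rbbp5, Rbbp7, Ezh1 and Ezh2, and without Kdm5c, Kdm5d and Kdm6a. This gave 86 genes of the 20672 probe sets tested, each with 1 probe set. The genes were picked by name alone, though with earlier results of these data known. By the paper's methods the probe set of highest variance was kept for each gene, so measured values chose the probe set. By role they comprise 18 genes grouped with the SWI/SNF and ISWI remodellers, 10 CHD remodellers, 3 RBBP subunits, 12 SET domain methyltransferases, 15 histone lysine demethylases, 11 classical histone deacetylases, 7 sirtuins, 6 other ARID proteins and 4 other bromodomain proteins. In the SWI/SNF and ISWI group, Smarcad1 and Smarcal1 are placed by name and are not subunits of these complexes.

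DNA in the nucleus is wound around histones. Remodellers of the SWI/SNF, ISWI and CHD families use ATP to slide or evict nucleosomes, while other enzymes add or remove methyl and acetyl groups on histone tails. Ezh1 and Ezh2 are the alternative catalytic subunits of Polycomb repressive complex PRC2, which methylates histone H3 at lysine 27, and Kdm6b removes that mark. Kdm5 enzymes remove methyl groups from lysine 4 of histone H3, which the COMPASS complexes, with Setd1a or Setd1b as the catalytic subunit and Rbbp5 as a core subunit, put there. Deacetylases such as Hdac1 and Hdac2 work in the NuRD and Sin3 complexes with the histone binding proteins Rbbp4 and Rbbp7, and NuRD also holds Chd3 or Chd4. In skin, these enzymes are known to take part in epidermal differentiation and in the response of macrophages to injury.

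RNA of skin was hybridised to 42 Affymetrix Mouse430V2 arrays in 9 groups. Wounds of 6 mm were made in db/db females aged 10 to 12 weeks. These mice lack a working leptin receptor, become obese and diabetic and heal slowly, although the strain label of every sample reads C57BL/6. At 24 h after 1 topical dose there were 4 control arrays and 5 each for IL-22-Fc (50 µg), VEGF (20 µg) and PDGF (50 µg). On day 7, after doses on days 0, 2, 4 and 6, there were 5 each for control, IL-22-Fc and VEGF and 3 for PDGF. The control wounds received an anti-ragweed antibody by the labels and a control Fc protein by the methods, the methods give another dose for VEGF, the design text gives 20 µg for IL-22-Fc, and the label of its day 7 group gives no dose. A further 5 arrays are labelled untreated, and the genotype of those mice is not given. Their titles lie in a number range of their own, so a difference of preparation or genotype and the wound itself cannot be told apart in any comparison with them. IL-22-Fc is the cytokine interleukin 22 fused to an antibody tail, VEGF is the growth factor of blood vessels, and PDGF is the platelet-derived growth factor that acts on fibroblasts. Nothing in the labels says whether animals were pooled, so p-values measure the spread between these arrays.

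Values are log2 of the deposited intensity, and differences are on the log2 scale, with the standard error (SE) of the fit. A gene was called when limma's adjusted p was under 0.05 over all 20672 probe sets. Levels were compared between arrays for 1 probe set, never between genes. The keratinocyte list had a median log2 intensity of 9.77 to 11.89 in the 42 arrays, as befits skin, while the eosinophil list lay at 3.08 to 3.54, near the lowest intensities of the table. In whole tissue, fewer cells of a type and less RNA per cell cannot be told apart.

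One technical sign has to stand before the results. The mean log2 intensity of the Gapdh and Actb probe sets at the 5' end of their transcripts, which falls when RNA is degraded and also when these genes are expressed less, was 11.92, 12.18 and 12.11 in the 3 PDGF arrays of day 7, against 12.95 to 13.18 in their controls. The Gapdh 5' probe set was lower by 1.42 (two-sided exact permutation p = 0.0179, the smallest that 3 against 5 arrays allow, adjusted p = 0.0804 over the 18 comparisons of 5' levels). Untreated replicate 5 was also low, at 11.72 against 12.85 to 13.13 for the other untreated arrays, and the remaining 38 arrays lay between 12.76 and 13.51. Untreated replicate 5 stood apart in cell markers too. Its median was 8.50 for the adipocyte list (other untreated arrays 11.04 to 11.51), 10.60 for keratinocytes (11.37 to 11.89) and 11.43 for skeletal muscle (12.22 to 12.75). For proliferation markers it was 8.35 (6.23 to 7.35), and its neutrophil, macrophage and lymphocyte medians lay within those of the others. The comparisons with PDGF on day 7 are given first without a correction for the 5' level, and their counts and calls with it follow.

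**Figure D1:**
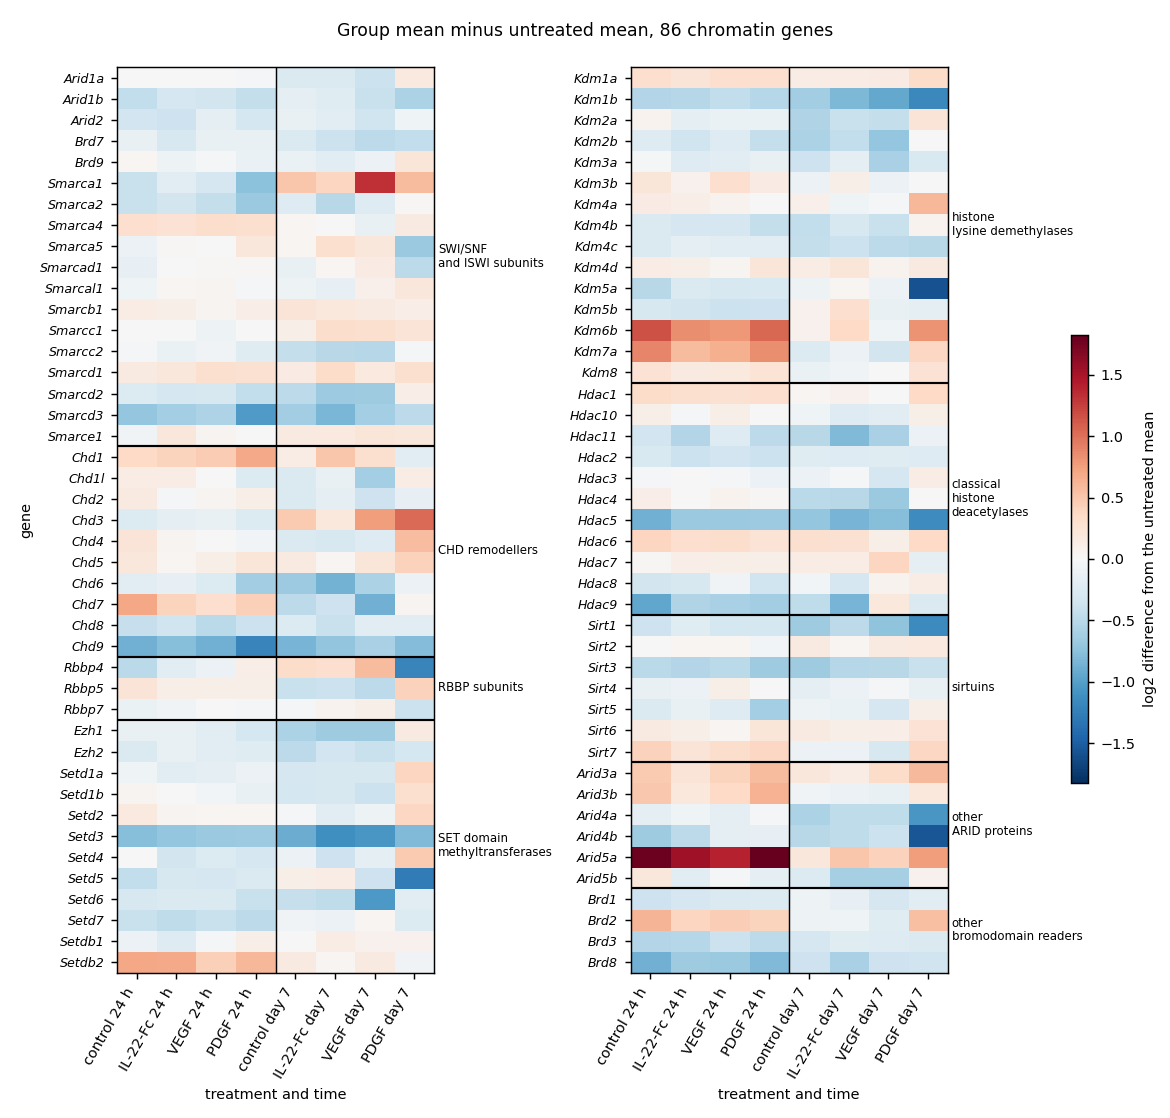
Mean log2 intensity of each of the 86 genes in the 8 wound groups minus its mean in the untreated group, red for higher and blue for lower, with genes in rows by role and treatments and times in columns. Arid5a, Kdm6b and Kdm7a are red in all 24 h columns and Hdac5 is blue in all 8, whereas the PDGF column of day 7 stands apart from the other day 7 columns for Rbbp4, Kdm5a, Setd5 and Arid4b.

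Control wounds were compared with untreated skin, within the limit on the untreated arrays given above. At 24 h, 14 of the 86 were higher than in untreated skin and 26 lower, against a background of 19.3% and 20.2% of all probe sets, and the median difference was -0.08 beside 0.033 over all probe sets. On day 7, 4 were higher and 32 lower, against 18.2% and 18.6% of all probe sets, and the median was -0.13 beside 0.037. The higher ones on day 7 were Smarca1 (0.49), Chd3 (0.47), Hdac6 (0.29) and Smarcb1 (0.23). The Smarcb1 means, 3.61 untreated and 3.85 on day 7, lay among the lowest 25% of all values. In this fit the lower members made up 30.2% and 37.2% of the list, above the background at both times, and the higher ones 16.3% and 4.65%, below it. With the 5' level as a covariate, 20 were higher and 23 lower at 24 h (22.3% and 22.2% of all probe sets). On day 7 that fit gave 8 and 27 (19.8% and 19.2%). Leaving out each array in turn gave 13 to 23 higher and 16 to 25 lower at 24 h. The counts at 24 h thus depended on the fit and on single arrays.

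The largest increase at 24 h was that of Arid5a, an RNA and DNA binding protein known to stabilise inflammatory mRNAs such as that of interleukin 6. It stood at 6.34, 6.55, 6.51, 6.22 and 6.37 in untreated skin, at 8.28, 7.74, 8.81 and 7.93 in control wounds at 24 h and at 6.80, 6.72, 6.50, 6.70 and 6.34 on day 7. All 24 h arrays were above all others, while the day 7 and untreated arrays overlapped. The increase was 1.79 (SE 0.23, adjusted p = 5.2e-08) and the later fall -1.58 (SE 0.23, adjusted p = 8.9e-07).

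Kdm6b, the demethylase of histone H3 lysine 27 that macrophages induce on activation, followed the same course. It read 8.05, 8.08, 8.13, 8.09 and 8.52 in untreated skin, 9.32, 9.28, 9.31 and 9.39 at 24 h and 8.22, 8.16, 8.32, 8.29 and 8.27 on day 7. The 4 arrays at 24 h differed by little and lay above every untreated and day 7 control array. The rise was 1.15 (SE 0.16, adjusted p = 2.3e-07) and the fall -1.07 (SE 0.16, adjusted p = 1.3e-06). Kdm7a, which demethylates lysines 9 and 27 of histone H3, rose by 0.89 and fell by 1.13, and Chd7, a remodeller of enhancers, rose by 0.72 and fell by 1.19, in both cases with every 24 h array above all untreated and all day 7 control arrays. Chd7 ended below its untreated level on day 7, by -0.48 (SE 0.15, adjusted p = 0.012). Brd2, a BET protein that reads acetylated histones, rose by 0.62 and fell by 0.71. Setdb2, a SET domain protein induced by interferon, rose by 0.69 and fell by 0.53, with overlapping arrays because control replicate 2 at 24 h stood at 7.27 against 7.88 to 8.50 for the others.

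Smaller increases at 24 h were called in Arid3b (0.49), Arid3a (0.47), Sirt7 (0.43), Hdac6 (0.39), Chd1 (0.36), Hdac1 (0.33), Smarca4 (0.31) and Kdm1a (0.31). Smarca4 is the ATPase of the SWI/SNF complex, and its alternative Smarca2 was lower at the same time, by -0.41 (SE 0.13, adjusted p = 0.013). Untreated replicate 5, with the low 5' level, stood at 9.99 for Smarca4 against 9.17 to 9.37 for the other untreated arrays, and at 10.32 against 9.40 to 9.75 for Hdac1. Without that array the differences were 0.46 for Smarca4 and 0.48 for Hdac1, and 23 members instead of 14 were called higher. On day 7, leaving it out gave 8 higher members instead of 4, while leaving out untreated replicate 1, untreated replicate 2 or control replicate 5 gave 2. The shares of all probe sets called in these refits are not given, so the counts show only how far the calls depend on single arrays.

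Other members were lower than in untreated skin at both times. Hdac5, a class IIa deacetylase that shuttles between nucleus and cytoplasm, stood at 8.77, 8.48, 8.93, 8.77 and 8.62 in untreated skin, at 7.72, 7.92, 7.82 and 7.86 at 24 h and at 7.92, 7.90, 7.79, 8.18 and 8.23 on day 7. No wound array reached an untreated one. The differences were -0.89 at 24 h (SE 0.09, adjusted p = 1.7e-09) and -0.71 on day 7 (SE 0.09, adjusted p = 4.6e-08). Setd3, the methyltransferase of actin histidine, differed by -0.77 and -0.90, the NAD-dependent deacetylase Sirt1 by -0.38 and -0.66, the mitochondrial sirtuin Sirt3 by -0.49 and -0.65 and the demethylase Kdm1b by -0.54 and -0.63. Each of these had all wound arrays below all untreated arrays at both times. Sirt1 fell further between 24 h and day 7, by -0.27 (SE 0.09, adjusted p = 0.023), with overlapping arrays.

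Hdac9 and Brd8 had their lowest control levels at 24 h. Hdac9, another class IIa deacetylase, was lower by -0.94 at 24 h (SE 0.19, adjusted p = 9.7e-05), with overlapping arrays, and by -0.46 on day 7. Brd8, a bromodomain protein of the NuA4 acetyltransferase complex, was lower by -0.87 and -0.38, but its 24 h arrays, at 3.56 to 3.78, lay among the lowest 25% of all values (under 3.93), which limits how far a fall can be measured. Chd9 differed by -0.88 and -0.85, but its untreated arrays spread from 4.06 to 5.66. Ezh1 did not pass at 24 h (-0.12, adjusted p = 0.35) and was lower on day 7, by -0.58 (SE 0.10, adjusted p = 7.3e-06). Its partner Ezh2 differed by -0.47 on day 7 (SE 0.13, adjusted p = 0.0045), a value that was -0.24 without untreated replicate 5, which stood at 9.61 against 8.39 to 8.52.

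From 24 h to day 7, 11 members rose in the control wounds and 28 fell, against 14.1% and 16% of all probe sets. Smarca1, an ISWI ATPase, rose by 0.89 (SE 0.16, adjusted p = 4e-05), with the day 7 arrays at 6.09 to 6.78 all above the 24 h arrays at 5.30 to 5.87. Chd3 rose by 0.72 (SE 0.18, adjusted p = 0.0027), also without overlap. Rbbp4 rose by 0.82 (SE 0.20, adjusted p = 0.0013), but control replicate 2 at 24 h, at 8.45, lay among the day 7 arrays while the other 24 h arrays stood at 7.22 to 7.41. That array also had the highest 5' level of all 42, at 13.51. Besides the genes named above, Rbbp5 (-0.65), Hdac4 (-0.62), Kdm2a (-0.61), Chd4 (-0.50) and Ezh1 (-0.45) fell in this interval.

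**Figure D2:**
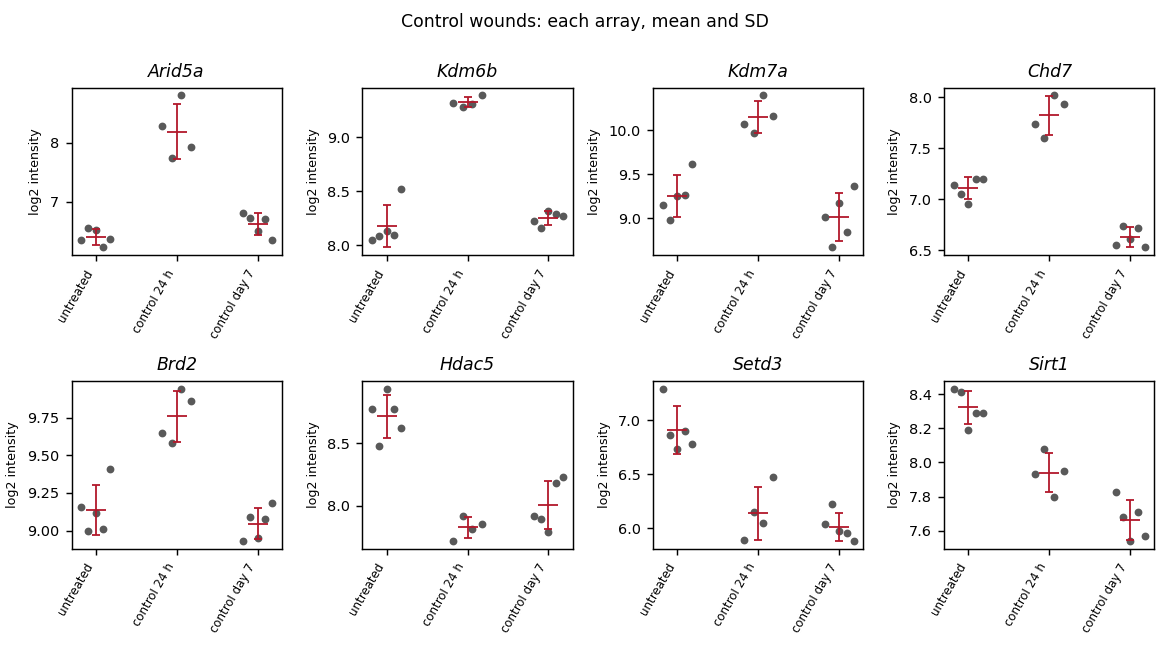
Log2 intensity of 8 genes in the untreated, control 24 h and control day 7 arrays, with 1 point per array and the mean and SD in red. Arid5a, Kdm6b, Kdm7a, Chd7 and Brd2 are highest at 24 h, whereas Hdac5, Setd3 and Sirt1 stay below every untreated array at both times.

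Markers of the cells in the tissue moved with these changes. At 24 h, 7 of 8 neutrophil markers and 8 of 12 markers of monocytes and macrophages were higher than in untreated skin, and the median log2 intensity of the neutrophil list was 8.20 to 9.07 per array against 4.86 to 5.41. On day 7 it was 6.06 to 6.83, and all 12 markers of monocytes and macrophages were higher than in untreated skin. Keratinocyte markers were mostly lower at 24 h (7 of 12, with 1 higher) and even on day 7 (3 lower, 3 higher). Adipocyte markers were lower at both times (5 and 6 of 6), as were markers of skeletal muscle (7 and 6 of 8). The median of the fibroblast list was 8.72 to 9.72 at 24 h and 10.98 to 11.82 on day 7, against 9.76 to 10.81 in untreated skin. The part of these cells in the changes of the chromatin genes was not tested.

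Promoter sequences are shown for the 4 genes with the largest increases at 24 h among those with a listed promoter and for Hdac5 and Setd3, so that genes which moved together can be compared. RefSeq promoters (build GRCm38.p6) matched 68 of the 86 genes, of which 16 have more than 1 listed start and are represented by the first. The 250 bases upstream of that listed start are printed 5' to 3' on the gene's strand, and capitals mark the GC box GGGCGG and the CCAAT box CCAAT on either strand. The Brd2 window lies inside the annotated gene (chr17:34112019-34122814), and the Setd3 window overlaps its gene, which ends at 108179345. The windows cover chr1:36307483-36307732 on the plus strand for Arid5a and, on the minus strand, chr6:39206774-39207023 for Kdm7a, chr14:59440881-59441130 for Setdb2, chr17:34119901-34120150 for Brd2, chr11:102230173-102230422 for Hdac5 and chr12:108179285-108179534 for Setd3.
Arid5a: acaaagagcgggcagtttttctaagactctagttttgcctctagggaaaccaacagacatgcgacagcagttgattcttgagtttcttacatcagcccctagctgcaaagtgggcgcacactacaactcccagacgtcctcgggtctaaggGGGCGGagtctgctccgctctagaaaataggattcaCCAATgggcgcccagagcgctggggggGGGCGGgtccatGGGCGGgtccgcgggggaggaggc
Kdm7a: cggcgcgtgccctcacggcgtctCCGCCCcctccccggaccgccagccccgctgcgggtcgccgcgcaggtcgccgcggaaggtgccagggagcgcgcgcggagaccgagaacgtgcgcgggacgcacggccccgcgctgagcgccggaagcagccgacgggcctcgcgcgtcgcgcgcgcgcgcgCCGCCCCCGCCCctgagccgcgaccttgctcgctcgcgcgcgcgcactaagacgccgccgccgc
Setdb2: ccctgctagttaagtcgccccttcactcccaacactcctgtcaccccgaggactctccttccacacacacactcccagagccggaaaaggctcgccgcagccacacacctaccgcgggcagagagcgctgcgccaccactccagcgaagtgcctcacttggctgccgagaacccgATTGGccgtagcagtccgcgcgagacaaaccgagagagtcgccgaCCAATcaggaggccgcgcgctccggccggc
Brd2: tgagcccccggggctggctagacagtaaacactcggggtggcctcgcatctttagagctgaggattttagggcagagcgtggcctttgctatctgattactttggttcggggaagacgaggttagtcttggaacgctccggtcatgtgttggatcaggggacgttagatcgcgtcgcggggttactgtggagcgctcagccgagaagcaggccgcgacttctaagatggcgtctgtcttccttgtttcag
Hdac5: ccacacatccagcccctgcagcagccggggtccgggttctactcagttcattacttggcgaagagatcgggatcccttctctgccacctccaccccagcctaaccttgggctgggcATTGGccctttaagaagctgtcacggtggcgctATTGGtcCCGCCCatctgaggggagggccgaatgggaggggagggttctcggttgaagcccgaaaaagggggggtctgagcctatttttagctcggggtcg
Setd3: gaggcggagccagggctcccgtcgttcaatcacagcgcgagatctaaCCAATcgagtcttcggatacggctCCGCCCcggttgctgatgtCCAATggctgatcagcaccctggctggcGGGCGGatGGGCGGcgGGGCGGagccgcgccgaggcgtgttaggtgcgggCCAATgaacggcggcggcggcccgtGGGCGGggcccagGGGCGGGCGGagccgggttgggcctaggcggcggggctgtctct
The GC box lay in 64.7% of the 68 member windows and in 50.3% of the windows of the 14142 genes on the arrays that have one, and the CCAAT box in 38.2% and 35.6%. The ETS motif CCGGAAG was in 17.6% and 10.6%. The member windows held a median of 19.5 CpG dinucleotides against 13, and among those shown Kdm7a had 56. Motifs of inducible factors were in few windows of either set. The cyclic AMP response element TGACGTCA was in 0% of the member windows and 2.28% of all. The AP-1 motif TGANTCA was in 2.94% and 5.52%, and the STAT motif TTCNNNGAA in 7.35% and 6.29%. These shares stand for 0, 2 and 5 member windows, too few to tell the members from all genes. Among the few genes shown, neither box separated those that rose from those that fell, since Arid5a and Setd3 each held both. Brd2 held neither, but its window lies inside the gene. Hdac9 (-0.94) and Chd9 (-0.88) also have a listed promoter and fell more than Setd3 at 24 h, but are not shown. The Hdac9 window held neither box, and the Chd9 window held 1 GC box and no CCAAT box.

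The wound treatments were then compared with control wounds. With IL-22-Fc on day 7, 1 of the 86 genes was higher and none was lower, against 2.81% and 2.64% of all probe sets. 14 members had an unadjusted p under 0.05, and the median difference was -0.00 (-0.003 over all probe sets). The share of all probe sets at that unadjusted threshold was not taken, so this count shows neither an excess nor a lack. The gene called was Chd1, a remodeller of transcribed genes. It stood at 7.40, 7.24, 7.26, 7.35 and 7.40 with IL-22-Fc and at 7.02, 7.13, 6.98, 6.72 and 6.97 in control wounds. All IL-22-Fc arrays were higher, and the difference was 0.37 (SE 0.10, adjusted p = 0.031). Leaving out control replicate 3, 4 or 5 or IL-22-Fc replicate 1, 4 or 5 raised its adjusted p to 0.057 to 0.1. Among the cell markers, 5 of 12 keratinocyte genes were lower and 1 higher, with a median per array of 9.93 to 10.57 against 11.08 to 11.63, and 3 of 8 neutrophil markers were higher; their part in the result was not tested. The PRC2 partners had the highest median of the lists of partner genes, at 0.34 over 7 genes, but none of them passed.

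With VEGF on day 7, 3 members were higher and 4 lower, against 5.96% and 8.74% of all probe sets. The median was -0.02 (-0.007 over all). Smarca1 stood at 7.29, 7.13, 7.36, 7.18 and 7.44 with VEGF and at 6.61, 6.09, 6.26, 6.49 and 6.78 in the controls. The groups did not overlap, and the difference was 0.83 (SE 0.11, adjusted p = 2.4e-05). Hdac9 stood at 5.71, 5.90, 5.97, 5.48 and 5.71 against 4.80, 5.29, 4.91, 5.10 and 5.37. It too did not overlap, with a difference of 0.66 (SE 0.14, adjusted p = 0.0026). Hdac7, a class IIa deacetylase that is best known from endothelial cells, was higher by 0.24 (SE 0.07, adjusted p = 0.031), with all VEGF arrays above all controls.

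The lower members with VEGF were the methyltransferase Setd6 (-0.62, SE 0.12, adjusted p = 0.00098), the SET domain protein Setd5 (-0.50, SE 0.10, adjusted p = 0.0019), the PARP-activated remodeller Chd1l (-0.36, adjusted p = 0.016) and Kdm1b (-0.31, adjusted p = 0.025). Setd6 stood at 6.20 to 6.49 with VEGF and at 6.69 to 7.25 in the controls, without overlap, whereas the other 3 overlapped. Endothelial markers moved with these results: 9 of 10 were higher with VEGF, led by Emcn at 2.25, Tie1 at 1.90 and Kdr at 1.56, and the list's median per array was 8.09 to 8.50 against 6.89 to 7.16. The remaining endothelial marker was lower. Of 12 keratinocyte markers 10 were lower, with a median of 10.37 to 10.94 against 11.08 to 11.63, and 5 of 12 markers of monocytes and macrophages were higher. The part of these cells in the changed levels of the chromatin genes was not tested. Leaving out control replicate 3 gave 7 lower members, control replicate 2 or 4 gave 2, and leaving out control replicate 5 gave 5 higher members. With the 5' level as a covariate 2 were higher and 2 lower, against 4.55% and 7.14% of all probe sets, namely Smarca1 (0.81), Hdac9 (0.66), Setd6 (-0.60) and Setd5 (-0.51).

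**Figure D3:**
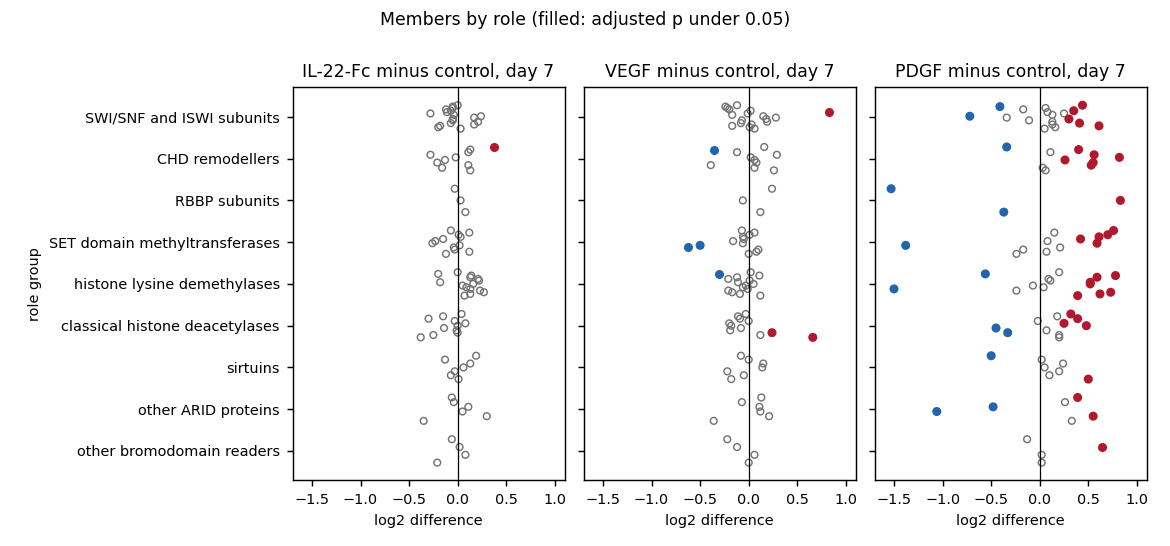
Log2 difference from the day 7 control of each of the 86 genes with IL-22-Fc, VEGF and PDGF, by role group, filled red or blue where limma's adjusted p was under 0.05 and open otherwise. Most genes lie within a narrow band around 0 with IL-22-Fc and VEGF, and 32 filled red and 13 filled blue points stand out with PDGF.

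With PDGF on day 7, 32 of the 86 genes were higher and 13 lower, against 18.9% and 16% of all probe sets. The median difference of the members was 0.15, beside 0.042 over all probe sets. For 30 of the 32 higher members every PDGF array lay above every control array, and for 12 of the 13 lower members every one lay below. The calls came from the same arrays, and the share of all called probe sets without overlap is not given. These counts therefore add no support to the calls. At least 1.5-fold was reached by 12 higher and 5 lower members, against 6.47% and 9.56% of all probe sets. The higher members (37.2%) exceeded the background share, and the lower ones (15.1%) were close to it. As stated above, the 3 PDGF arrays had the lowest 5' levels of the wound arrays, and the values in the next paragraphs carry no correction for it. With the correction over all 42 arrays that is described after the genes, the shares were 8.14% higher and 9.3% lower. All probe sets gave 8.19% and 9.13%, so that fit showed no excess of higher members. Outside PDGF on day 7 only untreated replicate 5 had a 5' level as low, so the correction leans on that array. No corrected fit without it is given here.

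Subunits of NuRD moved in both directions. Rbbp4 stood at 6.67, 6.92 and 7.09 with PDGF and at 8.52, 8.63, 8.43, 8.23 and 8.31 in the controls, a difference of -1.53 (SE 0.14, adjusted p = 4.1e-08). Its relative Rbbp7 stood at 10.73, 10.74 and 10.75 against 10.99 to 11.26, a difference of -0.37 (SE 0.08, adjusted p = 0.00053). Both were below every control array. Chd4, the ATPase of NuRD, went the other way, with 9.78, 9.66 and 9.47 against 8.69, 8.78, 8.68, 9.01 and 8.90, a difference of 0.82 (SE 0.10, adjusted p = 1.7e-06). Its alternative Chd3 was higher by 0.56 (SE 0.15, adjusted p = 0.0066), with overlap, and Hdac1 by 0.32 (SE 0.07, adjusted p = 0.0021). The Hdac2 probe set stayed at 3.40 to 3.89 with PDGF, likewise among the lowest 25% of all values. Ezh1 stood at 8.86, 8.81 and 8.65 against 8.03, 8.04, 7.87, 8.08 and 8.06, without overlap (0.76, SE 0.12, adjusted p = 3.9e-05). Ezh2 differed by 0.15 (SE 0.09, adjusted p = 0.25) and was not called.

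Kdm5a and 3 COMPASS subunits act on histone H3 lysine 4. Kdm5a stood at 6.15, 6.85 and 7.31 with PDGF and at 8.52, 8.19, 8.11, 8.37 and 8.17 in the controls. All PDGF arrays were below all controls, though they spread more widely (SD 0.58 against 0.17), and the difference was -1.50 (SE 0.18, adjusted p = 1.3e-06). Kdm5b differed by -0.24 (SE 0.12, adjusted p = 0.14) and was not called. Rbbp5 stood at 8.04, 8.15 and 8.09 against 7.11, 6.95, 7.41, 7.27 and 7.60, a difference of 0.83 (SE 0.13, adjusted p = 2.7e-05). Setd1a was higher by 0.70 (SE 0.09, adjusted p = 3.9e-06) and Setd1b by 0.61 (SE 0.10, adjusted p = 8.2e-05), both without overlap. With the 5' level as a covariate over all 42 arrays, Kdm5a and Setd1a kept their calls, and Rbbp5 (0.40) and Setd1b (0.21) did not.

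Setd5, a SET domain protein without established activity on histones, stood at 5.57, 5.93 and 5.69 against 7.08, 7.18, 7.17, 7.29 and 6.84. It was lower by -1.38 (SE 0.12, adjusted p = 1.8e-08) and did not overlap. Of the SET domain genes not yet named, Setd4 (0.59) and Setd2 (0.42), the methyltransferase of lysine 36, were higher, which made 5 higher and 1 lower of 12 in this group.

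Of the 15 demethylases, 7 were higher and 2 lower. Kdm4d, not called, had means of 3.52 with PDGF and 3.49 in the controls, among the lowest 25% of all values. Kdm2a, which acts on lysine 36, stood at 8.12, 8.36 and 8.38 against 7.60, 7.42, 7.62, 7.18 and 7.71. The groups did not overlap, and it was higher by 0.78 (SE 0.12, adjusted p = 3.7e-05). Kdm6b stood at 9.07, 8.97 and 8.92 against 8.16 to 8.32 and was higher by 0.73 (SE 0.14, adjusted p = 0.00021). Kdm7a (0.62), Kdm2b (0.59), Kdm4b (0.52), Kdm4a (0.52) and Kdm8 (0.39) were higher too, and Kdm1b was lower (-0.56, SE 0.11, adjusted p = 0.00027).

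In the remodellers, 6 of 10 CHD genes were higher, with Chd6 (0.55), Chd7 (0.53), Chd1l (0.40) and Chd5 (0.26) beside Chd3 and Chd4, and Chd1 was lower (-0.34, adjusted p = 0.022). Leaving out PDGF replicate 1 took Chd1 to an adjusted p of 0.14, Chd7 to 0.1 and Chd1l to 0.067, and leaving out control replicate 2 took Chd1 to 0.053. In the SWI/SNF and ISWI group 5 of 18 were higher, namely Smarcd2 (0.61), Arid1a (0.44), Smarcc2 (0.41), Brd9 (0.35) and Smarcal1 (0.30). The means of Smarcb1, Smarce1 and Smarcd1 lay under 3.93 in both groups, among the lowest 25% of all values, so their lack of a call says little. The ISWI ATPase Smarca5 was lower (-0.72, SE 0.11, adjusted p = 3.4e-05), as was Arid1b (-0.41), the alternative to Arid1a. Neither Smarca2 (0.25) nor Smarca4 (0.13) was called without the correction for the 5' level.

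Among the deacetylases, Hdac4 (0.48), Hdac11 (0.39), Hdac1 and Hdac3 (0.25) were higher, and the class IIa enzymes Hdac5 (-0.45) and Hdac7 (-0.33) were lower. Sirt7, the nucleolar sirtuin, was higher (0.50, SE 0.11, adjusted p = 0.0013), and Sirt1 stood at 6.87, 7.43 and 7.18 against 7.54 to 7.83 and was lower (-0.50, SE 0.11, adjusted p = 0.0015). Arid4b, a subunit of the Sin3 complex, stood at 3.62, 3.80 and 3.68 against 4.75, 4.88, 4.46, 4.86 and 4.82 and was lower by -1.06 (SE 0.12, adjusted p = 7e-07). Its PDGF arrays also lay among the lowest 25% of all values (under 3.93), which limits how far a fall can be measured. Its relative Arid4a was lower by -0.48 (SE 0.16, adjusted p = 0.027). Arid3a (0.39) was higher. Brd2 was higher by 0.64 (SE 0.10, adjusted p = 2.8e-05) and Arid5a by 0.55 (SE 0.20, adjusted p = 0.038), the latter passing without control replicate 1, 2 or 4 and not without any one of the other 5 arrays.

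Partner genes outside the named families were called in both directions. Their counts stand beside 18.9% higher and 16% lower of all probe sets and carry no correction for the 5' level. Whether any list differed from those shares was not tested. Of 20 partners of NuRD, Sin3 and CoREST, 4 were higher and 3 lower, and the largest changes were in the methyl-CpG binding protein Mbd2 (-2.24), in Tbl1xr1 (-0.91) and in Gatad2a (-0.80). Of 13 genes of COMPASS and the lysine 4 methyltransferases, 2 were higher and 3 lower, led by Cxxc1 (-1.38) and Kmt2b (0.70). Of 7 PRC2 partners, 1 was higher, Phf1 (0.79), and 3 were lower, among them Aebp2 (-0.53) and Mtf2 (-0.49). Of 21 SWI/SNF and ISWI partners 6 were higher and 2 lower, led by Baz2b (-1.27), of 9 acetyltransferases 3 and 1, and of 16 other histone methyltransferases 5 and 4.

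**Figure D4:**
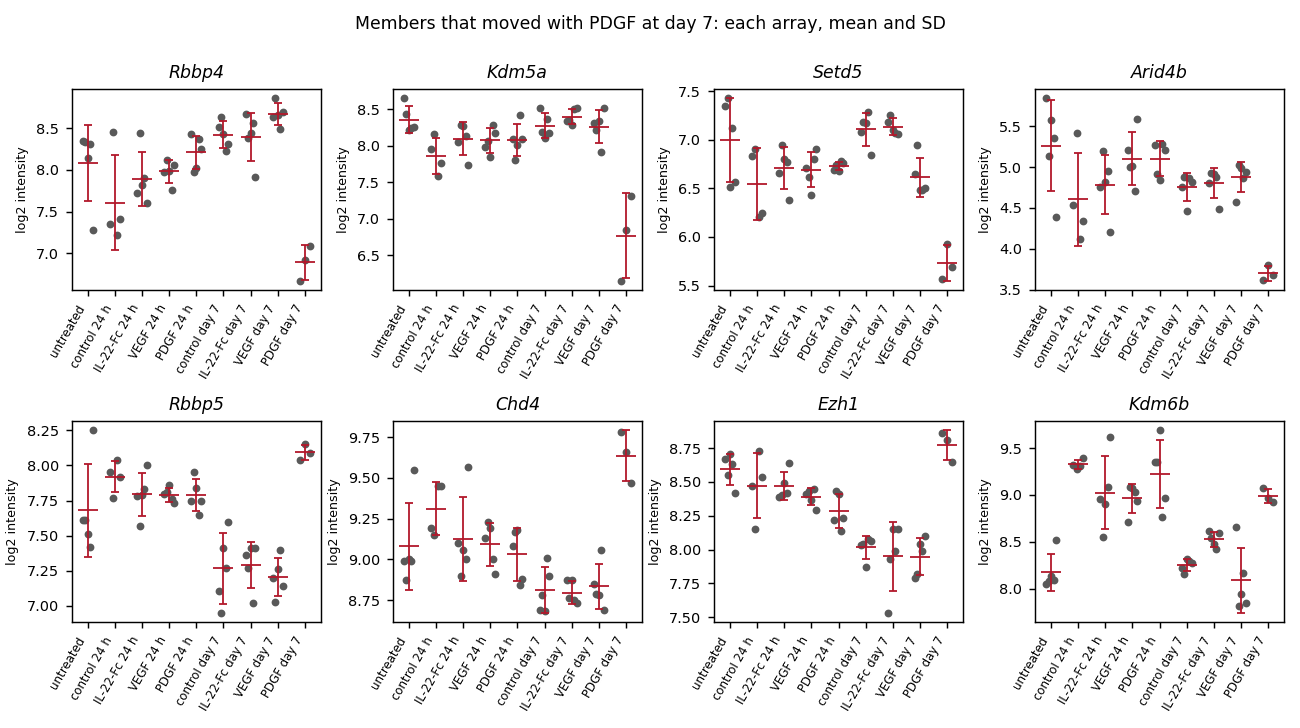
Log2 intensity of 8 genes in all 9 groups, with 1 point per array and the mean and SD in red. Rbbp4, Kdm5a, Setd5 and Arid4b have their lowest group mean with PDGF on day 7, Rbbp5, Chd4 and Ezh1 their highest, Kdm6b is high in all 24 h groups too, and untreated replicate 5 lies toward the PDGF arrays for Rbbp5, Chd4 and Rbbp4 but not for Kdm5a.

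The 5' level moved with many of these genes, so each gene was also fitted on the 5' level within groups in the 39 arrays that exclude PDGF on day 7. All 32 members that were higher with PDGF had a negative slope there, 15 of them called, whereas 73.3% of all 3900 probe sets higher with PDGF and 57.7% of all probe sets had one. Of the 13 lower members 10 had a positive slope, 4 of them called, which is 76.9% beside 78.3% of all probe sets lower with PDGF. The steepest positive slopes among the lower members were those of Rbbp4 (0.97 per unit of 5' level, SE 0.13, adjusted p = 9.7e-07) and Arid4b (0.93, SE 0.17, adjusted p = 9.4e-05). Without untreated replicate 5, 27 of the 32 slopes of the higher members were negative, 1 of them called, beside 70.9% of all probe sets higher with PDGF. Of the 13 lower members 9 had a positive slope without that array, and 4 were again called. In that array Rbbp4 stood at 7.28 against 8.14 to 8.35 in the other untreated arrays, Rbbp5 at 8.25 against 7.42 to 7.61 and Chd4 at 9.55 against 8.87 to 9.00, which for each is the direction seen with PDGF. Several cell marker lists of that array also stood apart, and their part in these slopes was not tested.

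When the 5' level entered the fit of all 42 arrays as a covariate, a choice made after seeing the data, 7 members were higher with PDGF and 8 lower, of which 6 and 7 had been called without it. These shares of 8.14% and 9.3% equalled those of all probe sets, 8.19% and 9.13%, to within 1 member. The median SE of the members was 0.16 in this fit, which leans on untreated replicate 5 for low 5' levels outside PDGF on day 7. Still called were Kdm2a (0.65), Ezh1 (0.63), Setd1a (0.57), Setd4 (0.45), Chd4 (0.45) and Sirt7 (0.40) as higher and Kdm5a (-1.31), Setd5 (-1.01), Rbbp4 (-0.53), Arid1b (-0.45), Sirt1 (-0.45), Kdm1b (-0.42) and Rbbp7 (-0.41) as lower. Called only with the covariate were Smarca2 as higher (0.55, adjusted p = 0.039) and Smarca1 as lower (-0.56, adjusted p = 0.044). Arid4b moved to -0.11 (adjusted p = 0.82), Rbbp5 to 0.40 (adjusted p = 0.066) and Kdm6b to 0.50 (adjusted p = 0.14). The slope of Kdm5a was 0.13 (SE 0.13, adjusted p = 0.55) and that of Sirt1 0.02 (SE 0.09, adjusted p = 0.9). Of the 45 members called without the covariate, Chd3, Chd6, Hdac1 and Hdac11 changed sign with it. With the covariate in the day 7 arrays alone no member was called, against 0.252% higher and 0.634% lower of all probe sets, at a median SE of 0.34 against 0.11. There Ezh1 stood at -0.08 (SE 0.31), and Chd1, Chd1l, Hdac11 and Setd1b changed sign too.

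**Figure D5:**
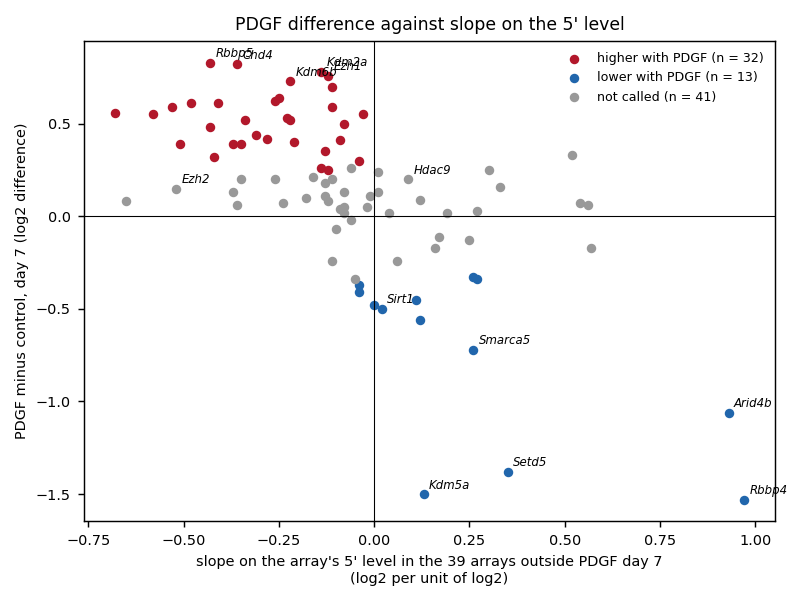
Log2 difference of PDGF from control on day 7 (vertical) against the slope on the 5' level in the 39 arrays outside that group (horizontal, log2 per unit of log2), 1 point per gene. All 32 genes that were higher with PDGF lie left of 0, and Rbbp4 and Arid4b lie far to the right, whereas Kdm5a lies close to 0.

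Cell markers differed as well. With PDGF, 6 of 10 fibroblast markers and 6 of 12 keratinocyte markers were lower, 4 of 6 adipocyte markers were lower and 6 of 12 markers of monocytes and macrophages were higher, with a median per array of 11.44 to 11.48 for the last list against 10.72 to 11.05 in the controls. The part of these cells in the changes of the chromatin genes was not tested.

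At 24 h the same treatments left nearly all of these genes without a call. With IL-22-Fc and with VEGF none of the 86 passed limma's adjusted p in either direction, against 0.0726% higher and 0.0387% lower of all probe sets for IL-22-Fc and 0.126% and 0.00967% for VEGF. At an unadjusted p under 0.05 there were 11 members with IL-22-Fc and 8 with VEGF, again without the share of all probe sets at that threshold. With PDGF at 24 h none was higher and 3 were lower, against 0.489% and 1.4%. These were Chd6 (-0.41, SE 0.09, adjusted p = 0.022), Sirt5, a mitochondrial sirtuin (-0.36, SE 0.09, adjusted p = 0.043), and Chd1l (-0.38, SE 0.10, adjusted p = 0.048), each with all PDGF arrays below all controls. They were not stable: leaving out control replicate 3, control replicate 4 or PDGF replicate 4 in turn left no lower call, leaving out control replicate 1 or PDGF replicate 1, 2 or 3 left 1, and leaving out control replicate 2 gave 5 lower and 4 higher.

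The effect of PDGF differed between the times. In the test of the difference of the 2 effects, 33 members were called higher on day 7 than at 24 h and 14 lower, against 18.1% and 14.3% of all probe sets. Rbbp4 differed by -2.14, with effects of -1.53 on day 7 and 0.61 at 24 h. The latter was not called (limma's adjusted p = 0.13, overlapping arrays). The PDGF arrays of 24 h had the highest mean 5' level of the groups, 13.32. With that level as a covariate the 24 h effect of PDGF on Rbbp4 was 0.09. Kdm5a differed by -1.72, Setd5 by -1.56 and Chd4 by 1.10. At least 1.5-fold was reached by 20 and 8 members (10.3% and 10.6% of all probe sets). With the 5' level as a covariate over all 42 arrays 7 were higher and 4 lower, against 7.67% and 7.6%. For VEGF 1 member was called higher and 5 lower (2.57% and 6.28%), and for IL-22-Fc none was called in either direction (0.759% and 0.934%). For IL-22-Fc 13 members had an unadjusted p under 0.05, a count without the share of all probe sets at that threshold. Smarca1 was the member called higher for VEGF, by 0.73.

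The day 7 treatments were compared with each other. PDGF was higher than VEGF in 36 members and lower in 14 (22.7% and 17% of all probe sets), and higher than IL-22-Fc in 35 and lower in 15 (21.1% and 17%). With the 5' level as a covariate over all 42 arrays, also chosen after seeing the data, PDGF was higher than VEGF in 12 members and lower in 7 (12.1% and 10.5%), and higher than IL-22-Fc in 12 and lower in 9 (9.91% and 10.3%). IL-22-Fc was higher than VEGF in 10 and lower in 6 (12.1% and 10.8%). These comparisons share arrays with those against the controls. Arrays of the same gene showed where PDGF stood alone: Rbbp4 lay at 7.92 to 8.67 with IL-22-Fc and 8.49 to 8.86 with VEGF, Kdm5a at 8.28 to 8.51 and 7.91 to 8.52, and Ezh1 at 7.53 to 8.15 and 7.79 to 8.10, in no case reaching the PDGF arrays. Setd5 was lower with both growth factors, at 6.48 to 6.95 with VEGF and 5.57 to 5.93 with PDGF, and stood at 7.06 to 7.26 with IL-22-Fc.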

How the data were processed

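RNA of skin from 42 samples was measured on Affymetrix Mouse430V2 arrays. The submitters' processing notes name RMA (background correction, quantile normalization and summary per probe set) and limma, with no version. The deposited values are RMA intensities on a linear scale, from 3.85 to 23537, although log2 values had been assumed when the tests were planned, so log2 of each intensity was taken and the authors' normalization kept. Array medians of log2 lay between 5.626 and 5.717. The number of arrays limits the precision. The table holds 20672 probe sets, of which 17928 have 1 gene symbol in GEO's platform annotation, 79 several and 2665 none, and each of the 86 genes has 1 probe set.

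Each comparison was fitted with limma (lmFit and eBayes, limma 3.58.1, R 4.3.3, data.table, version 1.17.8) and adjusted with Benjamini-Hochberg over all probe sets. The fits used the 18 arrays of day 7, the 19 of 24 h, all 42 for comparisons of control with untreated or between times of the control, and the 37 wound arrays for differences between times in the effect of a treatment. Groups came from the labels, whose titles carry no replicate numbers. Replicates were numbered in accession order, which only names them. The code was tested on simulated data. Tables and figures were made with Python 3.11.15, pandas 2.3.3 and matplotlib 3.10.9.

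Genes described array by array were, per comparison, the 2 higher and 2 lower with the largest difference among those called, and pairs of related genes. Any member could be named, and at most 3 genes of a partner or marker list. The members and lists were chosen with earlier results of these data known. The alternatives were quantile normalization, a trended and robust eBayes, array weights, a filter on the lowest 25% of probe sets, a fold of at least 1.5, other sets of arrays, the 5' level as a covariate, and leaving out each array. Lean control mice were not analysed here.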

Additional observations from a re-analysis of the deposited data

Results flagged for a closer look

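Of 216 groups of 4 or 5 arrays, from 27 genes, 23 held a single array far from the others of its group, where chance gives about 1 in 20 groups. Of all 688 such groups of the 86 genes, 8.43% did. Untreated replicate 5, the array with the lowest 5' level and with several marker medians apart from the other untreated arrays, accounted for 9 of the 23. It was high for Chd3 (8.19, others 6.74 to 6.99), Chd4 (9.55), Chd6 (7.46), Ezh2 (9.61), Kdm6b (8.52), Rbbp5 (8.25), Rbbp7 (11.43) and Smarca4 (9.99), and low for Rbbp4 (7.28).

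Among the control arrays, 24 h replicate 2 was high for Chd1 (7.58) and Rbbp4 (8.45), day 7 replicate 5 was high for Chd3 (8.04) and day 7 replicate 3 was low for Ezh1 (7.87). Among the VEGF arrays, 24 h replicate 5 was high for Chd1 (7.45), replicate 3 for Chd9 (4.21) and replicate 1 for Smarca2 (6.04), while day 7 replicate 1 was high for Chd7 (6.90) and low for Smarca2 (5.71). With IL-22-Fc, day 7 replicate 4 was low for Chd1l (7.16), day 7 replicate 1 low for Hdac5 (7.68) and 24 h replicate 2 high for Smarca2 (6.40). PDGF 24 h replicate 4 was high for Rbbp7 (11.23), and untreated replicate 3 was low for Kdm5b (7.83).

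The effect of a treatment differed between day 7 and 24 h in limma's test of the difference for 3 of the genes described with VEGF, namely Smarca1 (0.73), Setd5 (-0.64) and Setd6 (-0.64). With PDGF the difference was positive for Chd4 (1.10), Chd6 (0.96), Rbbp5 (0.96), Ezh1 (0.94), Brd2 (0.85), Kdm6b (0.84), Chd7 (0.80), Chd1l (0.78), Chd3 (0.56), Smarca2 (0.52) and Hdac1 (0.35). It was negative for Rbbp4 (-2.14), Kdm5a (-1.72), Setd5 (-1.56), Chd1 (-0.67), Hdac5 (-0.67) and Rbbp7 (-0.45). The 3 PDGF arrays of day 7 had low 5' levels, and fits with the 5' level as a covariate are given below. No other wound array had a 5' level as low, so these fits cannot fully separate the 5' level from PDGF on day 7.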

How the results depend on the processing

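Counts are of the 86 genes, as higher and lower. Where no share of all probe sets was given above for a refit, its count shows dependence on the processing only. With the 5' level as a covariate, PDGF on day 7 gave 0 and 0, IL-22-Fc on day 7 0 higher, VEGF on day 7 2 lower, PDGF at 24 h 0 lower and control day 7 against untreated 8 higher. Among the genes described array by array, Chd1 (0.12), Chd1l (-0.15) and Ezh1 (-0.08) then changed sign with PDGF, and of all 45 called members 5 did. With that covariate over all 42 arrays, chosen after seeing the data like the slopes on the 5' level, PDGF on day 7 gave 7 and 8, its effect difference 7 and 4, and Chd6 (-0.01), Chd3 (-0.11) and Hdac1 (-0.12) changed sign, as 4 of the 45 did. At a fold of at least 1.5 the counts were 12 and 5 for PDGF on day 7, 0 higher for IL-22-Fc on day 7, 1 lower for VEGF on day 7, 0 lower for PDGF at 24 h, 6 and 7 for control 24 h against untreated, 0 and 8 for control day 7 against untreated, and 3 and 8 for control day 7 against 24 h. With only the arrays of both groups, control against untreated gave 8 and 12 at 24 h and 0 and 19 on day 7. Array weights gave 24 higher for control 24 h and 8 for control day 7 against untreated, and 2 higher for PDGF at 24 h. All 42 arrays in 1 fit gave 0 lower for PDGF at 24 h and 1 lower for the effect difference of VEGF, which was 3 with quantile normalization. Without the lowest 25% of probe sets IL-22-Fc on day 7 had 1 lower. Leaving out each array in turn gave 0 to 1 higher and 0 to 1 lower for IL-22-Fc on day 7, 2 to 5 and 2 to 7 for VEGF on day 7, 25 to 32 and 11 to 14 for PDGF on day 7, 0 to 4 and 0 to 5 for PDGF at 24 h, 13 to 23 and 16 to 25 for control 24 h against untreated, 2 to 8 and 28 to 33 for control day 7 against untreated, 7 to 11 and 20 to 28 for control day 7 against 24 h, 0 to 1 and 0 to 1 for the effect difference of IL-22-Fc and 1 to 1 and 2 to 6 for that of VEGF. The lower count of control 24 h against untreated was 17 without control replicate 1 and 16 without replicate 3, and the higher count of control day 7 against 24 h was 7 without 24 h replicate 3. For the effect difference of VEGF the lower count was 2 without control 24 h replicate 3 and 3 without control 24 h replicate 1, control day 7 replicate 1, 2 or 4, VEGF 24 h replicate 4 or VEGF day 7 replicate 4. For IL-22-Fc on day 7, 1 was lower without IL-22-Fc replicate 2, and its effect difference had 1 higher and 1 lower without IL-22-Fc 24 h replicate 5 and 1 lower without control 24 h replicate 3. The cause of these changes was not tested. No paired analysis was possible because the titles carry no replicate numbers. Probe sets near the lowest intensities, such as Hdac2, limit what a fall could show.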
